A study of Mus musculus with 22 samples.

Results

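Transcripts of mouse embryonic stem cells (ESCs) that lack Ezh2 were compared with those of wild-type ESCs, both kept in medium with serum and LIF, the cytokine that holds mouse ESCs in the undifferentiated state. The comparison took 6 of the 22 RNA-seq libraries of the series, by their titles: 3 of the knockout clone 10 (EZH2KO.10SL, called the knockout here) and 3 of wild-type cells titled ESC (called wild type). All 6 are labelled as E14 cells, an established mouse ESC line, with the treatment ESC culture(+lif), and the knockout genotype is written Eeh2-null in the labels and was read as Ezh2. The knockout is a single clone, so a property of this clone and the loss of Ezh2 cannot be told apart from these 6 libraries. The design text of the series gives the purpose as testing whether EZH2 and PRC2 keep pluripotent cells from the primitive endoderm (PrE) fate.

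Further groups of the series were set beside the 6 libraries only where stated. They were a second wild-type E14 set in the same medium, titled TG2A.NG.PB.ESC (n = 2, called TG2A), and clone 10 with Ezh2 re-expressed, labelled Eeh2-rescued (n = 2, called rescued). In serum, LIF and 2i, a pair of kinase inhibitors, there were clone 10 (n = 2) and wild-type TG2A.NG.PB.S2iL cells (n = 2). Unless a fit is said to use the 6 libraries alone, all 22 libraries in 10 groups entered the filter, the scaling and the estimate of spread. They include libraries titled C57.ESC, C57.PrESC and EPZ.iPrE, which are not compared here. The labels do not say whether replicates came from separate cultures. The p-values therefore measure a spread between replicates that is shared over the groups and may be technical.

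EZH2 is the main catalytic subunit of Polycomb repressive complex PRC2, which methylates lysine 27 of histone H3 and needs SUZ12 and EED to do so; EZH1 is its less active paralog. PRC1, a second Polycomb complex, ubiquitinates histone H2A, and its CBX subunits bind the mark that PRC2 leaves. In ESCs both complexes sit at CpG-rich promoters of developmental regulators such as the Hox genes, which are nearly silent there. PrE is the extraembryonic layer that forms in the blastocyst beside the pluripotent epiblast, under GATA6, GATA4 and SOX17.

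Library totals were 16185614, 16205558 and 26280949 estimated counts in wild type and 24325321, 23716429 and 22805656 in the knockout, and 20296 to 21186 against 21652 to 21781 gene symbols had at least 1 count. Ribosomal protein genes took 5.34 to 6.42% of counts in wild type and 7.49 to 8.26% in the knockout. Replicates correlated at 0.9851 to 0.9888 (wild type) and 0.9885 to 0.9908 (knockout; Pearson, log2 CPM over the tested genes), and no 2 libraries agreed within counting noise. The labels give the molecule as polyA RNA but the kit as one that depletes ribosomal RNA, so the RNA selection is uncertain.

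Ezh2 was read first as a check of the labels. On the CPM scale, counts relative to the scaled total of the library, the knockout libraries held 0.0813, 0.0409 and 0.0424, from 2, 1 and 1 reads, and the wild-type libraries 173, 181 and 184 CPM. TG2A stood at 194 and 199.8 CPM and the rescued cells at 495 and 533 CPM. Every library matched its label, and the rescued cells were above both wild-type sets.

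Of 17547 genes tested, 4534 (25.8%) rose and 3990 (22.7%) fell in the knockout, 48.6% in all, at an adjusted p below 0.05 (edgeR quasi-likelihood test, Benjamini-Hochberg over all genes). At least 2-fold changes were more often rises: 2173 genes (12.4%) rose and 1389 (7.92%) fell by that much. The 3 knockout libraries lay above all 3 wild-type libraries for 6343 genes (36.1%) and below them for 5389 (30.7%). The median log2 fold change over all tested genes was 0.067, and each gene list below is read against these shares and this median. Changes after "rose by" and "fell by" are log2 fold changes of the knockout over wild type, and each standard error (SE) was obtained from the change and its F statistic.

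**Figure D1:**
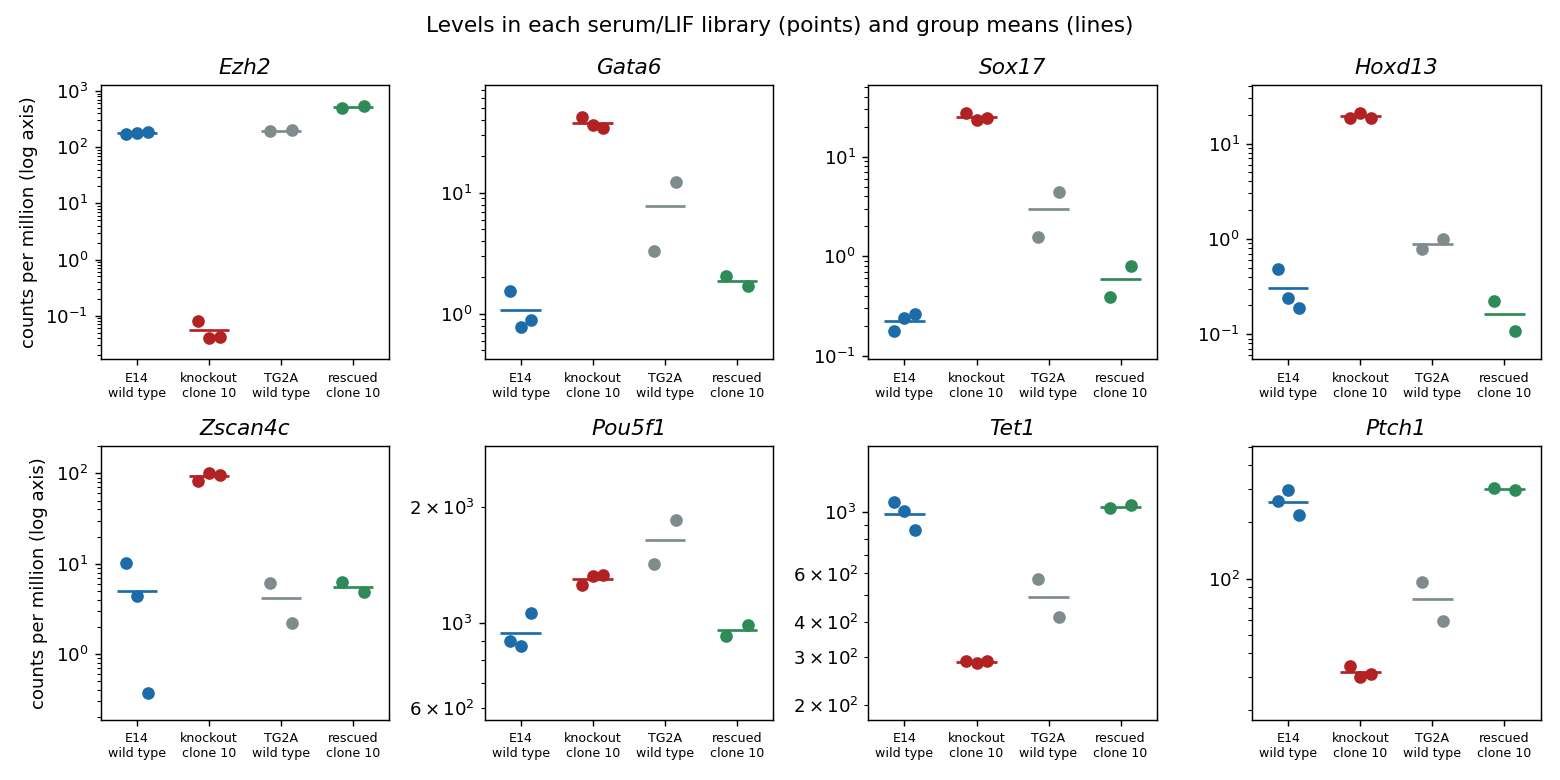
Level of 8 genes in CPM (log axis) in each serum/LIF library: E14 wild type (3 libraries), knockout clone 10 (3), TG2A wild type (2) and rescued clone 10 (2); lines are group means. Gata6, Sox17, Hoxd13 and Zscan4c were higher in the 3 knockout libraries than in all others, Tet1 and Ptch1 were lower, and for Pou5f1 the knockout lay above E14 and below TG2A.

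Genes that were silent or nearly so in wild type rose most often. Of 947 tested genes at or below 0.1 CPM in wild type, 438 (46.3%) rose and 1 fell, with a median log2 change of 2.743. From 0.1 to 1 CPM, 762 of 3292 rose and 228 fell (median 0.474). Above 100 CPM the balance was the other way: 472 of 2221 genes (21.3%) rose and 1039 (46.8%) fell, with a median of -0.223. The wild-type level enters the fold change itself, so these bins describe the comparison and test nothing.

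Calls also followed the genomic span of a gene, its length with introns. In 10 bins of 1718 genes by span, 539 rose and 184 fell in the shortest bin (66 to 2691 bases, median 0.453). In the bin of 63009 to 114371 bases 291 rose and 658 fell (median -0.195), and in the longest, 114392 to 2960900 bases, 333 rose (19.4%) and 520 fell (30.3%, median -0.051). Against TG2A the medians of these bins were 0.083, -0.006 and 0.21, and between the 2 wild-type sets, E14 over TG2A, they were -0.192, 0.288 and 0.337. The slope of a library's log2 deviation on log10 span was 0.182, 0.152 and 0.0212 in wild type and -0.164, -0.25 and -0.239 in the knockout. Whether this length trend has a part in any single gene's change was not tested. Removing it ended the calls of 10 of the 197 genes named by rule and turned the sign of 1, and those named below are given with both values.

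**Figure D2:**
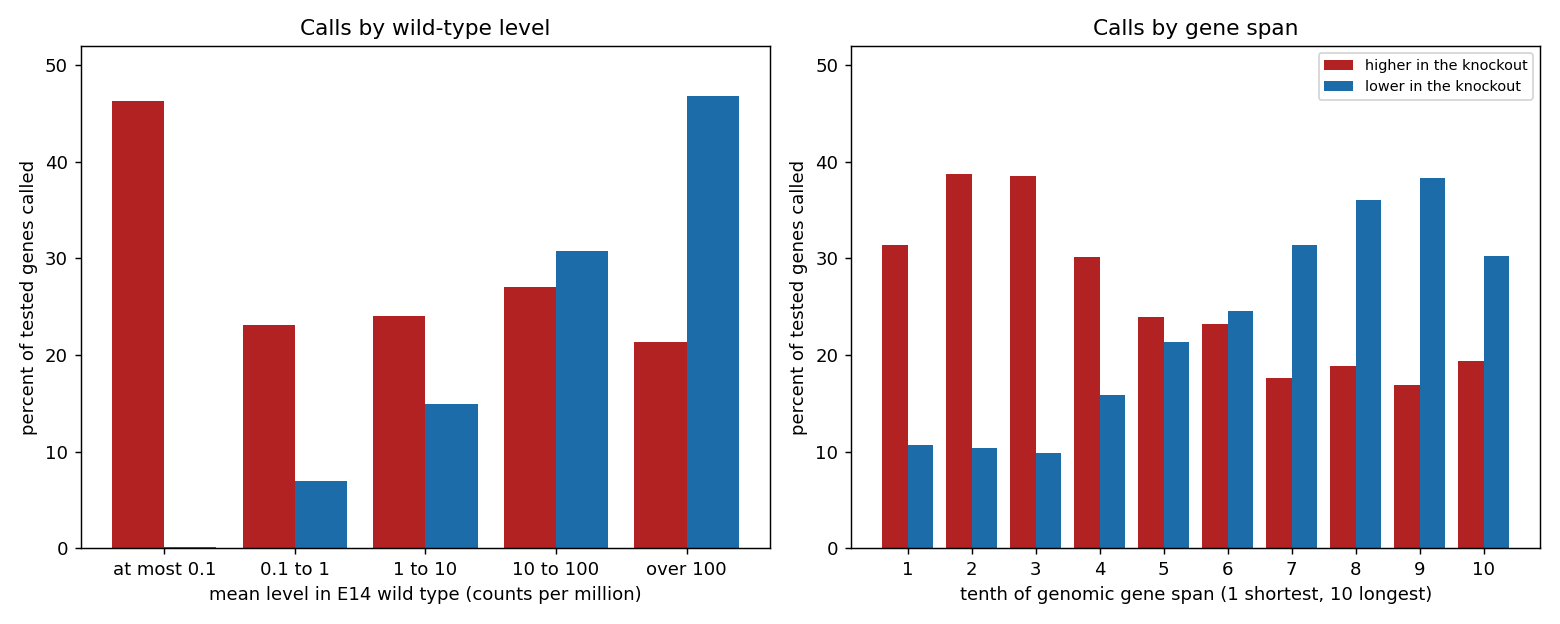
Percent of tested genes called higher (red) or lower (blue) in the knockout, by mean level in E14 wild type in CPM (left) and by genomic gene span in 10 bins of equal size (right). Rises took 46.3% of the genes at or below 0.1 CPM against 21.3% of those over 100, and falls rose from 10.7% in the shortest bin to 38.3% in the bin of 63009 to 114371 bases and were 30.3% in the longest.

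Hoxd13, Pdgfra, Zscan4c and Ptch1 show how far apart the changes ran, and their promoters are printed because they differ in CpG content. Hoxd13, a homeobox factor of the limb and tail end of the body, stood at 18.6, 21.1 and 18.5 CPM in the knockout and 0.479, 0.239 and 0.187 CPM in wild type, and rose by 6.03 (SE 0.42, adjusted p = 2.96e-08). Pdgfra, the receptor tyrosine kinase used to mark PrE, stood at 31.5, 22.9 and 19.3 against 1.56, 1.08 and 0.746 CPM and rose by 4.50 (SE 0.42, adjusted p = 4.06e-07). Zscan4c, a marker of the 2-cell-like state, stood at 82.2, 102 and 95 against 10.2, 4.36 and 0.373 CPM and rose by 4.28 (SE 0.72, adjusted p = 1.65e-04). The groups did not overlap for any of the 3, but the wild-type libraries themselves ranged widely for Zscan4c. Ptch1, the Hedgehog receptor and a target of that pathway, stood at 34.3, 29.9 and 31.1 against 258, 294 and 217 CPM and fell: -3.01 (SE 0.19, adjusted p = 1.32e-08).
The 250 bases before each start (RefSeq, GRCm38.p6) are given 5′ to 3′ on the gene's strand, with every CG in capitals, a motif that reads the same on both strands. They lie at chr2:74667975-74668224 (plus strand, Hoxd13, 31 CG), chr5:75152001-75152250 (plus, Pdgfra, 4 CG), chr7:11005495-11005744 (plus, Zscan4c, 3 CG) and chr13:63565736-63565985 (minus, Ptch1, 41 CG).
Hoxd13: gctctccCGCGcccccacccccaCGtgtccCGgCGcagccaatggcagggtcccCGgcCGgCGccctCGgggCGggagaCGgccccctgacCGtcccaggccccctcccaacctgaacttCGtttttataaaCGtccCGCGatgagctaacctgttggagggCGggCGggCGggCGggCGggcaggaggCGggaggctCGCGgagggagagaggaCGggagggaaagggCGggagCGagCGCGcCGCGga
Pdgfra: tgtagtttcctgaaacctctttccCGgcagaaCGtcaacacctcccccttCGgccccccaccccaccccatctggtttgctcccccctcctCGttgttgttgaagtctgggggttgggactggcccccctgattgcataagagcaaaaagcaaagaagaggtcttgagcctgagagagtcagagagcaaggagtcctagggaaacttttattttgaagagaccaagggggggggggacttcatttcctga
Zscan4c: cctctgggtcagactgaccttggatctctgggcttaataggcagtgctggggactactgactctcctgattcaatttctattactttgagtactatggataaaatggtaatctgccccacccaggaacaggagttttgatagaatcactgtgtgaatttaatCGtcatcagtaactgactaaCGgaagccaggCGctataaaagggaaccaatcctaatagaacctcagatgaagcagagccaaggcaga
Ptch1: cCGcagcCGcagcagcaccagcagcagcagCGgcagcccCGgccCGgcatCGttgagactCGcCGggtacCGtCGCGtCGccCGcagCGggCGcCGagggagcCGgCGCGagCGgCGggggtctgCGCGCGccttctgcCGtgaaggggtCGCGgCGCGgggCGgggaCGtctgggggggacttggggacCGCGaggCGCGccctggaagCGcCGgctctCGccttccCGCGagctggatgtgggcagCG
Over all 27025 promoters of the table, at the same length, 91.7% hold at least 1 CG, the median is 6 and 38.2% hold at least 10. Hoxd13 and Ptch1, which changed in opposite directions, both had CG-dense windows, and Pdgfra and Zscan4c, which both rose, had few. A comparison of CG content between all rises and all falls was void, because only 71% of the tested genes had a promoter entry.

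Within PRC2 itself the loss of Ezh2 was not accompanied by a rise of the paralog. Ezh1 stood at 16.8, 16.3 and 15.9 CPM in the knockout and 48.1, 45.6 and 40.5 in wild type and fell by 1.45 (log2 scale, SE 0.17, adjusted p = 4.25e-06), with no overlap. Suz12 and Eed, the scaffold and the mark-reading subunit, did not pass the test (log2 -0.04 and 0.08), nor did the histone chaperones Rbbp4 (-0.06) and Rbbp7 (-0.08). Of 6 core genes 0 rose and 2 fell by edgeR, with a median of -0.074. An unadjusted p below 0.05 and DESeq2 gave the same counts. Against TG2A 0 rose and 3 fell, beside 13.6% and 14.1% of all genes, and there Eed was among the falls (-0.78).

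Accessory subunits, which steer PRC2 to its sites, moved unequally. Epop, an elongin-binding subunit of PRC2.1, stood at 766, 672 and 666 CPM against 201, 194 and 148 CPM and rose by 1.95 (SE 0.16, adjusted p = 8.79e-08). Of the other 6 tested members 5 fell: Phf19 (-1.35), Lcor, which encodes PALI1 (-0.95), Mtf2 (-0.53), Aebp2 (-0.38) and Jarid2 (-0.24, adjusted p = 0.0497). Phf1 did not pass (0.16). The calls of Aebp2 and Jarid2 ended with the length trend removed (-0.13 and -0.04) and without wild-type replicate 1 (-0.23 and -0.18); that of Phf19 ended without wild-type replicate 3 (-1.15). Jarid2 also lost its call without wild-type replicate 2 (-0.24) or knockout replicates 2 (-0.20) or 3 (-0.23), and with no filter on low counts (-0.20).

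PRC1 subunits changed in both directions, 10 of 21 up and 6 down (median 0.208). Cbx8, a chromobox subunit of canonical PRC1, stood at 9.71, 10.1 and 8.95 CPM against 0.898, 0.598 and 0.933 CPM, a log2 rise of 3.54 (SE 0.30, adjusted p = 1.35e-07). Bmi1, also known as Pcgf4, stood at 28, 26.9 and 26.1 against 5.51, 5.68 and 6.08 CPM and rose by 2.22 (SE 0.15, adjusted p = 2.40e-08). Cbx7, the main chromobox subunit in ESCs, fell by 1.20 on the log2 scale, and the Polyhomeotic genes Phc1 and Phc3 fell by 0.91 and 1.5. Phc1 was tightly replicated, at 285, 284 and 280.5 against 537, 533 and 529 CPM. Of the catalytic pair, Ring1 rose (0.67) and Rnf2, which encodes RING1B, did not pass (-0.13). Canonical chromobox genes moved both ways, with Cbx2 (0.59) and Cbx8 up and Cbx6 (-0.56) and Cbx7 down; Cbx6 lost its call without wild-type replicate 3 (-0.49).

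Enzymes that work against Polycomb fell as a group by count, 11 of 14 down and 0 up by edgeR, with a median of -0.819. An unadjusted p below 0.05 and DESeq2 also gave 0 rises and 11 falls. Kmt2d and Kmt2a, methyltransferases of histone H3 lysine 4, stood at 85.8, 67.4 and 67.2 against 237, 227 and 167 CPM and at 60.6, 53.4 and 53 against 172, 167 and 131 CPM. Their changes were -1.52 (SE 0.14, adjusted p = 4.23e-07) and -1.49 (SE 0.13, adjusted p = 1.48e-07). Kdm6a, the demethylase UTX that removes the PRC2 mark, fell from 95.2, 89.9 and 76.6 to 49.9, 39.4 and 41 CPM, and Asxl2, a partner of the H2A deubiquitinase BAP1, fell by 1.29 on the log2 scale. These are long genes, with a median span of 77596.5 bases against 19592.5 for all tested genes. With the length trend removed 10 of the 14 still fell (Kmt2d -1.34, adjusted p = 9.65e-07). Against TG2A 8 fell, but the median there was -0.413. Between the wild-type sets 6 of the 14 were higher in E14 than in TG2A and 0 lower, beside 11.2% and 13.1% of all genes. The size of these falls thus depended on the wild-type set. Over all alternative settings the smallest falls of Kmt2d and Kmt2a were -0.52 and -0.51.

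The Hox genes, which set position along the body axis, rose almost throughout. Of 39 Hox genes 33 passed the filter on low counts, and among these 32 rose and 0 fell. Many could pass the filter only through the knockout, so the count is no measure of how selective the rise was. Hoxa10 stood at 23.8, 22.1 and 17.1 CPM against 0.120, 0 and 0.0746 CPM and rose by 8.17 (SE 0.55, adjusted p = 2.20e-08). Hoxa11 stood at 15.2, 15.2 and 12.5 against 0, 0.120 and 0 CPM, a ratio of 431-fold (119 to 3563). The bracketed bounds of such ratios are exact 95% intervals over summed counts and cover counting error only. Its antisense RNA Hoxa11os, which overlaps it in part, stood at 11.8, 14.7 and 11.6 against 0, 0.0598 and 0 CPM. The strand setting of the counting is not given in the sources used here, so reads of this pair cannot be told apart.

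Some Hox genes had no wild-type reads at all, and bounds from 3 counts over the group put Hoxd11 at least 60.5-fold, Hoxb2 at least 22.9-fold and Hoxc6 at least 19.9-fold higher in the knockout. The smallest of the 32 rises was that of Hoxc13 (1.27). It stood at 9.43, 10.5 and 12.1 CPM against 4.67, 4.36 and 4.25 CPM, so it was not silent in wild type. Hoxb9, at 4.18, 4.86 and 5 against 3.11, 2.99 and 2.35 CPM, did not pass the test (0.74, SE 0.71, adjusted p = 0.414) although its groups did not overlap. Hoxc8 lost its call without knockout replicate 2 (3.43) and without wild-type replicates 1 (3.13) and 3 (3.71).

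All 4 clusters took part. All 10 tested Hoxa genes on chromosome 6 rose (median 5.028), 6 of 7 Hoxb genes on chromosome 11 (3.54), 9 of 9 Hoxc genes on chromosome 15 (4.031) and 7 of 7 Hoxd genes on chromosome 2 (5.294). Over the 33 tested genes the median was 4.685, and 4.421 with genes at 0 set to their bounds. The 6 untested members had 3 to 32 counts over the knockout libraries and 0 to 2 over wild type, with Hoxd12 at 32 against 0. The summed Hox level was 135.7 to 145 CPM in the knockout and 12.39 to 14.19 CPM in wild type. These bulk libraries cannot tell a few cells with high Hox RNA from many with a little, and here as elsewhere fewer cells of a type and less RNA per cell cannot be told apart.

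**Figure D3:**
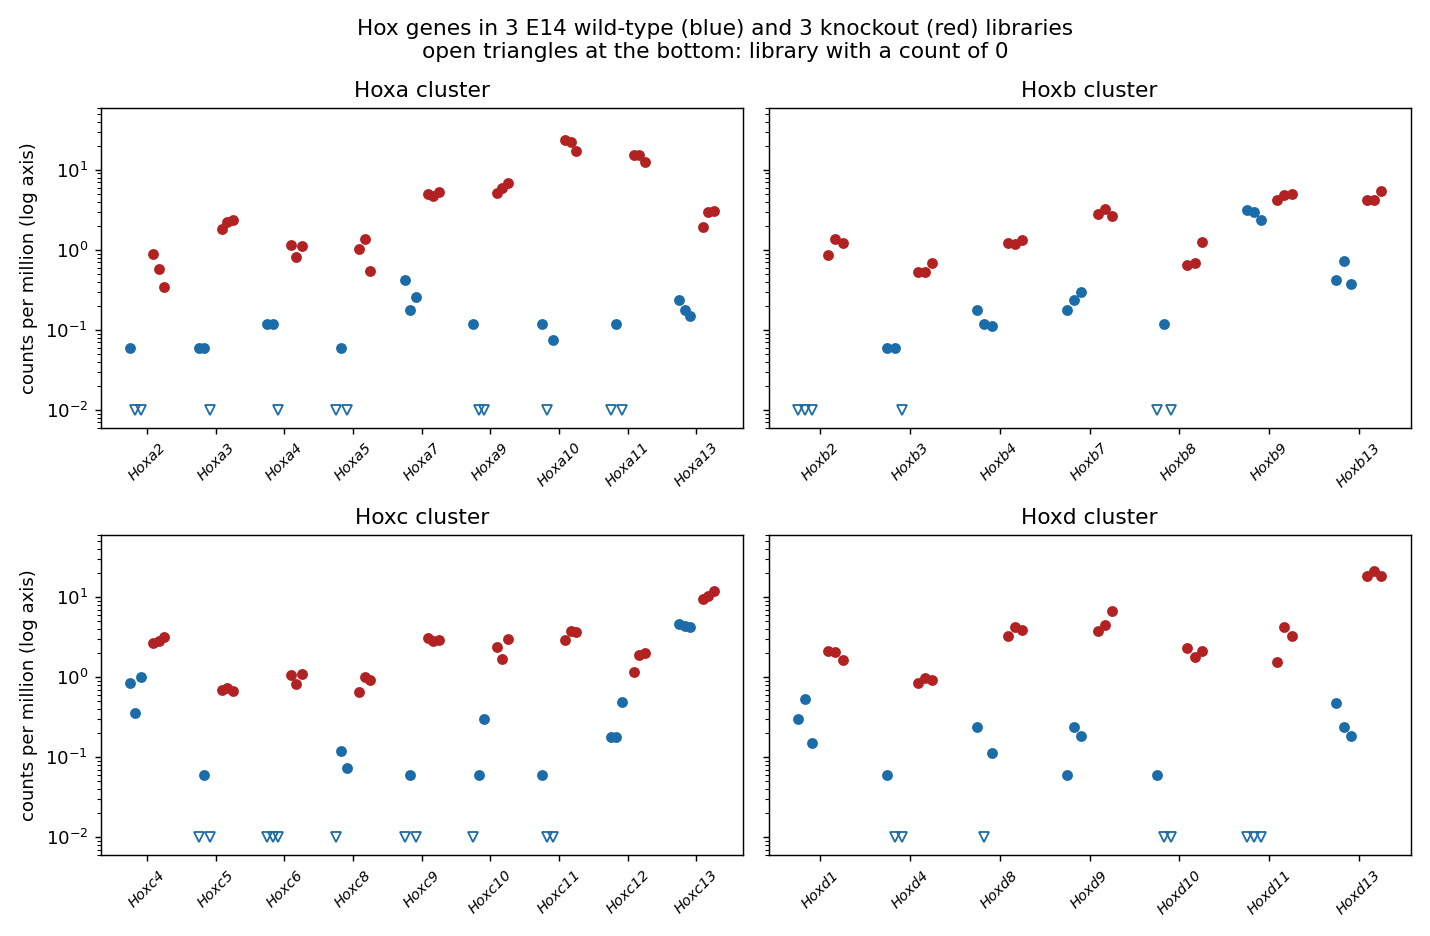
Level of tested Hox genes in CPM (log axis), by cluster and in order of paralog number, in 3 E14 wild-type (blue) and 3 knockout libraries (red); open triangles mark libraries with a count of 0. Knockout libraries lay above all wild-type libraries for every gene shown, by the least for Hoxb9 and Hoxc13.

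Of 86 tested members of a list of other developmental transcription factors known as Polycomb targets in ESCs, 62 rose and 3 fell, with a median of 2.908 (2.701 with genes at 0 set to their bounds). Against TG2A, the second wild-type set, 37 rose and 3 fell. Another 18 of the 104 had too few counts, and 10 of those tested had no reads in 1 of the groups, so here too members could pass the filter through the knockout alone. Tbx15, a T-box factor of limb and skeleton, stood at 5.93, 6.99 and 7.25 CPM against 0.0599, 0.120 and 0 CPM, a ratio of 135-fold (45.9 to 656). Pax9, a factor of pharyngeal pouch and tooth, had 1.22, 1.72 and 2.16 CPM and no wild-type reads and was at least 34-fold higher. The hindlimb factor Pitx1 rose by 5.50 (SE 0.65, adjusted p = 4.15e-06), from below 0.2 CPM in each wild-type library. Not all of the list followed. Neurod1, a neuronal differentiation factor, stood at 1.18, 1.1 and 1.06 against 7.96, 7.41 and 14.3 CPM and fell by 3.15; Pax8 and Nkx2-9 fell by 1.55 and 1.40.

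The PrE transcription factors rose in the knockout, 7 of 9, with 1 fall (median 4.87). Gata6, which starts the PrE program, stood at 42.4, 36.2 and 34.2 CPM against 1.56, 0.777 and 0.896 CPM and rose by 5.15 (SE 0.59, adjusted p = 3.26e-06). Gata4 rose by 5.63 (SE 0.64, adjusted p = 2.93e-06), from 0.419, 1.02 and 0.672 to 38.5, 33.2 and 33.2 CPM. Sox17, a SoxF factor of endoderm, stood at 27.3, 23.2 and 24.5 against 0.180, 0.239 and 0.261 CPM and rose by 6.71 (SE 0.64, adjusted p = 4.59e-07). The forkhead gene Foxq1 rose by 6.08 (SE 0.64, adjusted p = 1.21e-06), but 66.1% of its exon length overlaps other genes. Foxa2 and Sox7 rose by 4.87 and 4.18, whereas Hhex did not pass (0.12). Hnf4a, a nuclear receptor of visceral endoderm, fell (-1.29, adjusted p = 0.0253). This fall was lost with the length trend removed (-1.03) and without knockout replicates 2 (-1.17) or 3 (-1.29) or wild-type replicates 2 (-1.29) or 3 (-1.18), and was turned round against TG2A (1.39, SE 0.61, adjusted p = 0.098).

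The uptake and basement membrane genes of PrE rose in 12 of 18 cases, with 1 fall (median 2.688). Srgn, a secretory granule proteoglycan, stood at 53, 46 and 45.7 CPM against 1.32, 1.02 and 0.709 CPM and rose by 5.62 (SE 0.71, adjusted p = 8.53e-06). Cubn, the endocytic receptor cubilin, rose by 4.93 (SE 1.04, adjusted p = 9.80e-04), and its partner Amn and adaptor Dab2 by 4.14 and 4.64. Lrp2, the megalin receptor of the same machinery, did not pass (0.25). The collagen pair Col4a1 and Col4a2 rose by 3.91 and 4.67, from 16.4, 16 and 14.3 to 419, 388 and 377 CPM for Col4a2, and Lama1 and Sparc by 2.90 and 2.61. Lamc1 (0.27) and Nid1 (-0.29) did not pass, and Nid2 fell by 0.69, so the basement membrane genes did not move as one. The summed level of the list was 5119 to 6012 CPM in the knockout and 2392 to 2772 CPM in wild type.

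Genes of the 2 later PrE branches rose too. Among parietal endoderm genes 6 of 8 rose (median 2.092), led by Pth1r, the parathyroid hormone receptor, at 12.9, 19.1 and 19.4 against 1.32, 0.717 and 0.821 CPM (4.18). Among visceral endoderm genes 7 of the 10 tested rose (median 1.86), led by Dkk1, a Wnt inhibitor, at 16.7, 10.5 and 10.2 against 0.0599, 0 and 0.187 CPM (6.88, SE 0.71, adjusted p = 1.08e-06). Another 7 visceral genes had too few counts to test, among them Afp with 11 counts over the knockout libraries and 1 over wild type, Ttr with 32 and 0, and Cer1 with 2 and 0.

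Pluripotency genes were read as a check of the label ESC, and those of the naive state had overlapping summed levels. Of 16 naive pluripotency genes 3 rose and 2 fell (median 0.015), and their summed level was 3749 to 4250 CPM in the knockout and 3797 to 4164 CPM in wild type. Fitted on the 6 libraries alone, 6 rose and 6 fell. Nanog stood at 454, 403 and 388 CPM against 384, 306 and 271 CPM without overlap, but did not pass the test (0.37, SE 0.19, adjusted p = 0.118). Klf4 (0.44), Zfp42 (0.15) and Esrrb (-0.21) did not pass either, with adjusted p from 0.225 to 0.609. In the fit on the 6 libraries alone Nanog (0.36, adjusted p = 0.0152), Klf4 (0.42, adjusted p = 0.00735) and Esrrb (-0.23, adjusted p = 0.00969) passed. Nanog also passed by DESeq2 (adjusted p = 0.0259), and Nanog and Klf4 with no filter on low counts (adjusted p = 0.000873 and 0.00018). In that unfiltered edgeR fit the adjusted p of Cubn was 5.26e-290, beside 9.80e-04 in the main fit of the same libraries. Its p-values therefore cannot be taken as a measure of the spread between replicates. Prdm14 and Tcl1 rose by 0.84 and 0.87, and Tet2, a dioxygenase of methylated DNA, fell by 0.98.

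Of the general pluripotency genes 3 of 14 rose and 3 fell (median 0.124), and 6 rose in the fit on the 6 libraries alone. Their summed level was 6238 to 6342 CPM in the knockout, 4438 to 4983 CPM in wild type and 5508 and 7109 CPM in TG2A. Pou5f1, which encodes OCT4, stood at 1255, 1325 and 1335 CPM against 897, 873 and 1059.6 CPM and rose by 0.47 (SE 0.16, adjusted p = 0.0214). Its partner Sox2 stood at 298, 293 and 293 against 445, 458 and 402 CPM and fell by 0.56 (SE 0.12, adjusted p = 0.00101). The Pou5f1 call was not robust. It ended with the length trend removed (0.13), and against TG2A the sign was negative (-0.33). At little changed size it also ended without knockout replicates 2 (0.43) or 3 (0.43) and without wild-type replicates 1 (0.43) or 2 (0.42). Sox2 was lower under each of these settings and against TG2A (-0.42). Dppa5a, an RNA-binding protein of ESCs, rose by 1.16, and Zfp281 fell by 0.86.

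Formative genes, which mark the step toward the primed epiblast, fell more often than they rose, 7 of 14 against 2 (median -0.436); 5 rose in the fit on the 6 libraries alone. Zic5 (-1.31) and the de novo DNA methyltransferase Dnmt3a (-0.69) were among the falls, and Sox3, a SoxB1 factor, rose from 1.26, 0.658 and 1.68 to 6.99, 7.56 and 6.61 CPM (2.53). Fgf5, the usual marker of that state, did not pass (0.23). The same held for T, the mesoderm factor brachyury, at 0.772, 0.490 and 0.678 against 1.02, 0.299 and 0.970 CPM (-0.25).

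Every tested gene of the 2-cell-like state rose, 12 of 12 (median 4.162), and against TG2A all 12 rose as well. The state resembles the totipotent 2-cell embryo and is held by few cells of an ESC culture at a time. The summed level was 375.2 to 409.6 CPM in the knockout but 4.143 to 44.98 CPM in wild type, where replicate 1 was highest and replicate 3 lowest. Tdpoz4 stood at 4.92, 3.6 and 3.99 CPM against 0, 0.120 and 0 CPM, a ratio of 126-fold (34.5 to 1041), and Tcstv3 rose by 6.10. The transcription factor gene Zfp352 stood at 5.93, 4.82 and 4.41 against 0.120, 0.538 and 0 CPM (4.64). Trim43a (6.53, SE 0.64, adjusted p = 1.52e-06) and Eif4a3l2 (6.39), outside the list, were among the 12 largest rises of all. Zscan4 and Eif4a3l2 are multi-copy genes whose estimated counts were fractional in up to all 6 libraries, so the split between copies is uncertain.

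Germline genes rose in 10 of 22 cases and fell in 3 (median 0.837). Mael, a piRNA pathway gene, stood at 106, 106 and 107 CPM against 16.2, 11.5 and 15.1 CPM and rose by 2.89 (SE 0.28, adjusted p = 5.87e-07). Stra8, the retinoic acid target that opens meiosis, stood at 66.3, 79.9 and 77.9 against 19, 11.1 and 4.11 CPM (2.73), and Dazl, an RNA-binding protein of germ cells, rose by 1.69. Prdm1, which encodes BLIMP1, fell by 2.65 (adjusted p = 0.0158), a call that ended without knockout replicate 3 (-2.58). The other falls, Ddx4 (-0.47) and Sycp3 (-0.72), ended without knockout replicates 1 (-0.50 and -0.59) or 2 (-0.45 and -0.75) and without wild-type replicates 1 (-0.31 and -0.57) or 2 (-0.45 and -0.69).

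Genes listed as imprinted, expressed from 1 parental copy in at least some tissues or stages, gave 8 rises and 8 falls of 33 (median -0.124). That is 24.2% each way, near the shares of all tested genes (25.8% and 22.7%), and is not read as a trait of the list. Whether any listed gene was expressed from 1 copy in these cells was not measured. Mest fell furthest, from 12.9, 10.2 and 12.8 to 0.488, 0.572 and 0.382 CPM (-4.62, SE 0.49, adjusted p = 1.27e-06). Gab1, an adaptor of receptor tyrosine kinases, stood at 41.1, 44.6 and 44 against 349, 334 and 314 CPM and fell by 2.94 (SE 0.08, adjusted p = 1.96e-13). In the Dlk1-Dio3 domain Dlk1 and Dio3, genes of the paternal copy, rose by 2.29 and 3.72. The maternal RNAs Meg3 (-2.53) and Rian (-2.15) fell, from 1.38, 2.03 and 3.62 to 0.244, 0.327 and 0.678 CPM for Meg3. Their adjusted p values were 0.0341 and 0.0337. Rian lost its call with the length trend removed (-1.90) and without any single library of the 6 (-2.47 to -1.95), and Meg3 without knockout replicates 1 (-2.28) or 2 (-2.41) or wild-type replicates 2 (-2.62) or 3 (-2.03). Dlk1, Meg3 and Rian did not pass against TG2A, and other genes of their domain are not described here. Without knockout replicate 2, 5 imprinted genes fell in place of 8.

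Genes of DNA methylation and of its removal, taken as 1 list, fell in 6 of 9 cases, with 1 rise (median -0.695). Tet1, the main oxidase of methylcytosine in ESCs, stood at 290.1, 284 and 288 CPM against 1085, 1007 and 864 CPM and fell by 1.78 (SE 0.16, adjusted p = 2.06e-07). Tdg, the glycosylase that removes its products, fell by 1.08, and the maintenance pair Dnmt1 and Uhrf1 by 0.76 and 0.52. Dnmt3l, the cofactor of de novo methylation, moved the other way, from 132, 161 and 208 to 516, 449 and 428 CPM (1.48). Against TG2A it did not pass (0.50, SE 0.25, adjusted p = 0.146). Over all alternative settings the smallest fall of Tet1 was -0.78. These are long genes too, with a median span of 52680 bases against 19592.5 for all tested genes. Against TG2A 6 members of the list fell as well, with a median of -0.556.

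Of 13 tested Hedgehog pathway genes 2 rose, 5 fell and 6 were not called (median -0.087), and against TG2A 1 rose and 3 fell. The receptor gene Ptch1 and the transcription factor gene Gli1, both targets of the pathway, fell by 3.01 and 1.64. The ligand genes Ihh and Dhh rose, from 0.719, 0.478 and 0.597 to 3.53, 4.25 and 3.48 CPM for Ihh (2.64), but Dhh did not pass against TG2A (1.60). The ligand gene Shh had too few counts, 5 over the knockout libraries and 2 over wild type. The transducers Smo (-0.09) and Sufu (-0.03) did not pass. The coreceptor Cdon (-0.68) and Gli2 (-1.01) were among the falls. Gli2 lost its call by DESeq2 (-1.02), with the length trend removed (-0.82) and without any single library (-1.06 to -0.94) but wild-type replicate 3. With the length trend removed 3 fell, as they did without knockout replicates 2 or 3 or wild-type replicates 1 or 2, each left out alone. The summed level was 282.7 to 295.2 CPM in the knockout and 617 to 798.2 CPM in wild type, while TG2A, at 455.6 and 500.1 CPM, lay between.

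Genes of TGF-beta, BMP and Nodal signalling rose more often than they fell, 11 of 25 against 2 (median 1.001); 1 fell without knockout replicates 1 or 2 or wild-type replicates 2 or 3. The ligands Bmp2 and Bmp6 rose by 4.83 and 3.10, and the targets Id1 and Id3 by 1.19 and 1.82. Bmper, a secreted BMP modulator, stood at 6.01, 5.07 and 6.11 CPM against 0.120, 0.0598 and 0 CPM, a ratio of 115-fold (39 to 559.5). Nodal (0.25) and Lefty1 (-0.43) did not pass. Skil, a repressor of SMAD proteins, fell from 172, 172 and 171 to 41.5, 36 and 41.3 CPM (-2.12, SE 0.20, adjusted p = 4.65e-07).

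Retinoid genes rose in 10 of 16 cases, with 1 fall (median 1.808). Cyp26a1, the enzyme that degrades retinoic acid, stood at 6.3, 5.52 and 5.3 CPM against 0.180, 0.120 and 0.187 CPM (5.06, SE 0.35, adjusted p = 2.96e-08). Its receptor gene Rarb rose by 2.34, and Rara fell by 0.97. Among Wnt response genes 7 of 15 rose and 1 fell (median 0.675). Axin2, the most general target of the pathway, rose by 0.68, and Tcf7 fell by 0.84. ERK response genes gave 2 rises and 4 falls of 17 (median -0.071). Egr1, an immediate early gene, fell from 29.6, 37.2 and 20.9 to 5.12, 4.9 and 5.72 CPM (-2.47), Phlda1 rose by 2.28, and the feedback genes Dusp6 (-0.18) and Spry4 (-0.07) did not pass.

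Cell cycle inhibitors rose in 4 of 8 cases and fell in 1 (median 1.16). Cdkn2a, a classic PRC2 target that encodes p16INK4A and p19ARF, stood at 39.5, 38 and 41.8 CPM against 3.17, 2.81 and 3.73 CPM and rose by 3.61 (SE 0.38, adjusted p = 1.36e-06). TG2A stood between them, at 14.1 and 16.6 CPM. Cdkn2c and Cdkn3 rose by 2.26 and 1.33, Cdkn1b fell by 0.76, and Cdkn1a did not pass (-0.48). In the p53 and stress list 6 of 16 fell and 2 rose (median -0.463). The falls included the p53 targets Bbc3 (-1.80), Trp53inp1 (-1.65) and Mdm2 (-1.07), with Mdm2 at 71.3, 75.7 and 74 against 160.0, 138 and 166 CPM. Bax (0.33), 1 of the 2 rises, was at -0.01 with the length trend removed and lost its call without knockout replicates 2 (0.28) or 3 (0.25) or wild-type replicates 1 (0.30) or 3 (0.32).

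Markers of other lineages were read as a check on the makeup of the cultures. Trophoblast genes rose in 9 of 16 cases and fell in 1 (median 1.46): Esx1 from 1.74, 1.73 and 1.57 to 16.1, 16.9 and 17.9 CPM (3.34), Hand1 by 3.48 and Gata3 by 2.87. Cdx2, the defining trophectoderm factor, did not pass (1.16), Tfap2c fell (-1.46) and Prl3d1 had 0 counts. The list's summed level was 404.1 to 439.4 CPM against 243.6 to 329.9 CPM. Neural genes gave 4 rises of 13, Nefl at 21.6, 20.6 and 19.7 against 3.65, 3.89 and 3.4 CPM among them, while Sox1 (0.36) and Tubb3 (0.34) did not pass. Primitive streak genes gave 4 rises of 17 and 2 without wild-type replicate 1. Muscle genes gave 3 rises and 1 fall of 14. The fall, Ttn, went from 55.4, 46.7 and 27.9 to 6.09, 5.35 and 6.23 CPM (-2.87). Rises took 30.8% of the neural, 23.5% of the streak and 21.4% of the muscle genes, beside 25.8% of all tested genes. These counts of rises are not read as traits of the lists.

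Fibroblast genes, markers of feeder cells, gave 0 calls of 17 by edgeR at the adjusted threshold, where an unadjusted p below 0.05 gave 0 rises and 1 fall, DESeq2 gave 1 rise, and the fit on the 6 libraries alone gave 4 rises and 1 fall. Their summed level was 138.7 to 145.6 CPM in the knockout and 93.18 to 115.5 CPM in wild type, with Dcn and Mmp3 at 0 in the knockout. Macrophage genes summed to 6.988 to 8.95 and 6.348 to 12.73 CPM. C1qa, C1qb, C1qc, Adgre1 and Tyrobp were at 0 in the knockout, and the 2 macrophage rises, Csf1r and Fcgr3, had means below 1 CPM. Of the 7 tested, 1 rose without knockout replicate 2 or 3 or any one wild-type replicate, and 0 in the fit on the 6 libraries alone. Epithelial and mesenchymal genes gave 6 rises (26.1%) and 3 falls (13%) of 23, beside 25.8% and 22.7% of all tested genes. Grhl2, an epithelial transcription factor, fell from 37, 40.2 and 48.2 to 5.81, 5.97 and 7 CPM (-2.74, SE 0.31, adjusted p = 2.47e-06), and E-cadherin (Cdh1) fell from 578, 620.0 and 589 to 312, 287 and 291 CPM. Twist1, Snai1 and Snai2 rose by 2.88, 1.97 and 2.55, whereas Epcam (-0.02) and Vim (1.30) did not pass. Snai2 lost its call without wild-type replicates 1 (2.32) or 2 (2.43).

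**Figure D4:**
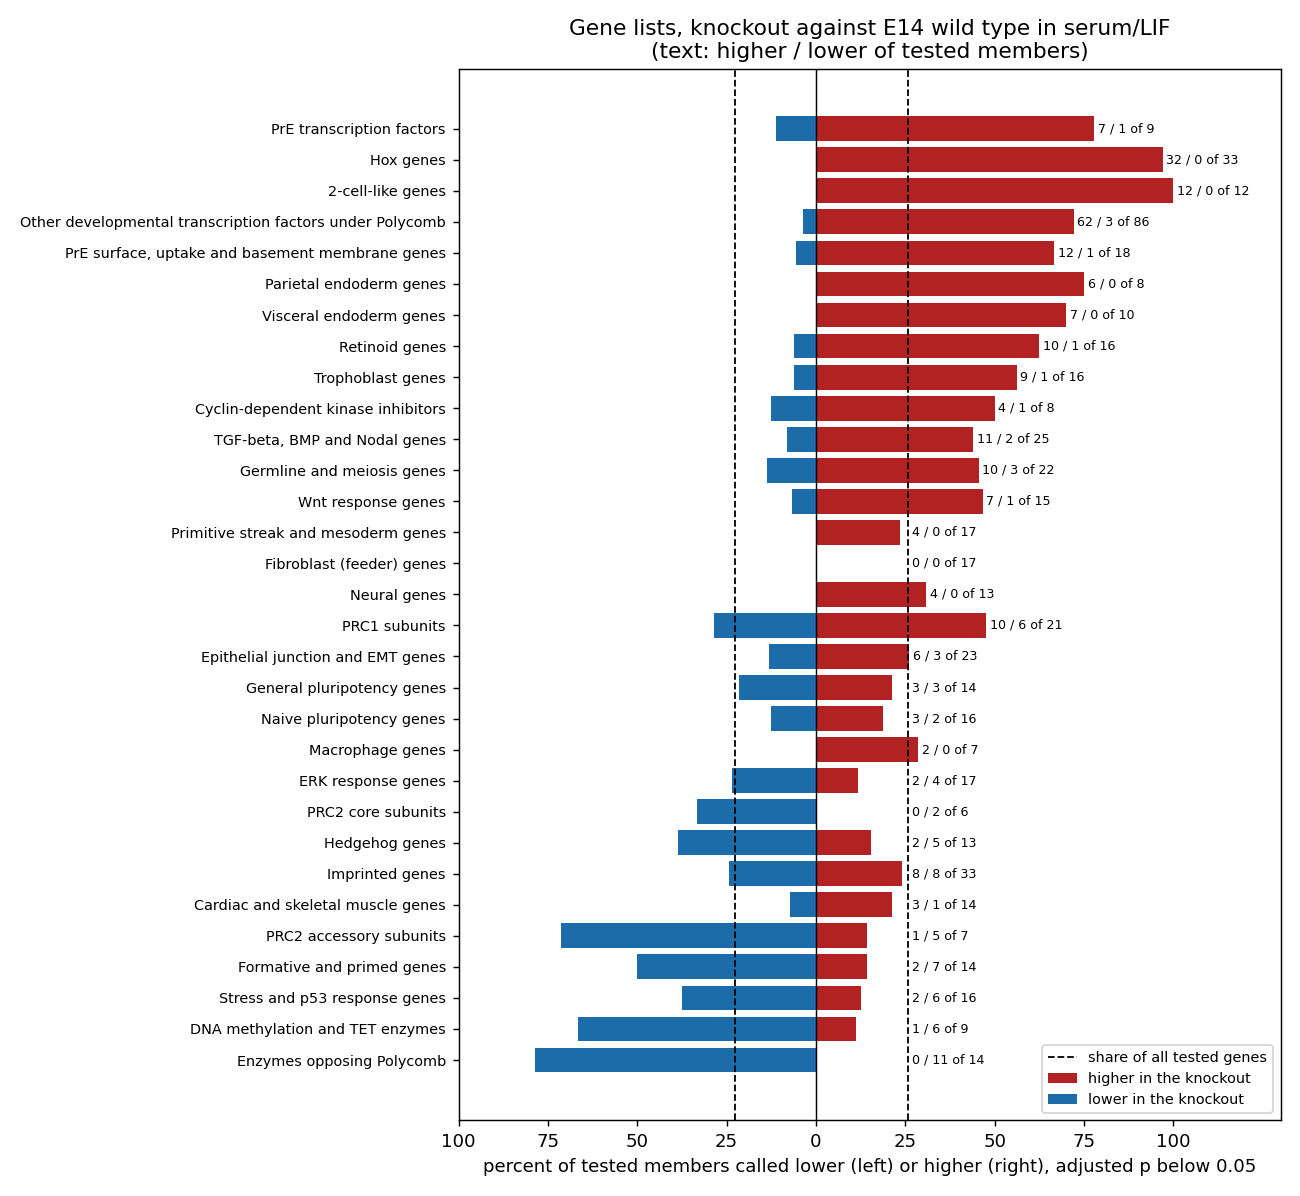
Percent of tested members of each of 31 gene lists called lower (blue, left) or higher (red, right) in the knockout against E14 wild type, ordered by median log2 fold change; text gives calls higher and lower of members tested, and dashed lines mark the shares among all tested genes, 25.8% and 22.7%. The PrE transcription factor, Hox and 2-cell-like lists lie at the top, and the enzymes opposing Polycomb and the DNA methylation and TET enzymes at the bottom.

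Among the 12 largest rises at 10 CPM or more, not yet described, Arg2, the mitochondrial arginase, stood at 22.6, 20.2 and 18 CPM against 0.599, 0.239 and 0.112 CPM (6.07, SE 0.66, adjusted p = 1.70e-06). Tmem92, a transmembrane protein gene, stood at 19.5, 25.9 and 25.4 against 0.779, 0.179 and 0.149 CPM (6.06), and Hs3st1, a heparan sulfate sulfotransferase, rose by 5.73. The largest falls after Ezh2 and Mest included Lncenc1, a long noncoding RNA of naive ESCs, which stood at 32.1, 30.9 and 30.4 CPM against 345, 336 and 323 CPM (-3.43, SE 0.31, adjusted p = 2.64e-07). Fat2, an atypical cadherin, fell by 3.29, the gamma-carboxyglutamate protein gene Prrg4 by 3.20 and the guanine nucleotide exchange factor gene Kndc1 by 2.83. Neb, which encodes the muscle protein nebulin, and Slfn9, a Schlafen family gene, fell by 2.78 and 2.89.

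The second wild-type set bears on how far these values rest on the E14 libraries. Against TG2A 2381 genes (13.6%) were higher in the knockout and 2482 (14.1%) lower, with 1564 (8.91%) and 392 (2.23%) at least 2-fold; this comparison shares the knockout libraries with the one above. The 2 wild-type sets differed from each other in 1972 genes higher in E14 (11.2%) and 2298 lower (13.1%). The TG2A pair stood apart from each other, with a mean chi-square of 30.2 per gene against 2.14 to 17.1 between replicates of the other groups used here. Gata6 was at 3.28 and 12.3 CPM there, and its log2 change was 2.27 against TG2A beside 5.15 against E14. For Sox17 the values were 3.07 and 6.71, for Hoxd13 4.44 and 6.03, for Zscan4c 4.49 and 4.28, and for Ptch1 -1.29 and -3.01.

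By list, 27 of 33 Hox genes, 7 of 9 PrE transcription factors, 11 of 18 PrE surface and membrane genes and 12 of 12 genes of the 2-cell-like state rose against TG2A. Other lists gave fewer rises than against E14: 37 of 86 other developmental transcription factors (62 against E14), 5 of 25 TGF-beta, BMP and Nodal genes (11), 1 of 14 muscle genes (3) and 0 of 14 general pluripotency genes (3). Over all tested genes the share of rises also dropped, from 25.8% against E14 to 13.6% against TG2A, so such drops are not read as traits of these lists. Of the general pluripotency genes 6 fell against TG2A and 3 against E14, and of the germline genes 0 and 3. In all, 20 of 62 list counts moved by over 1.5 times. Of the 197 genes named by rule 41 kept their sign but did not pass there, and 9 had the opposite sign. Among the falls, Fat2 (-0.94), Neb (-0.66), Bcor (-0.13), Pax8 (-0.92), Tfap2c (-0.16), Cldn4 (-0.0035), Tcf7 (-0.08), Cbx6 (-0.47), Prdm1 (-1.13), Meg3 (-2.40) and Rian (-2.01) did not pass. Among the rises, Phlda1 (0.43), Sox3 (0.82), Stra8 (0.79), Tcl1 (0.58), Dppa5a (0.62), Dlk1 (1.02), Dhh (1.60), Snai2 (1.15) and Hoxc8 (3.36) did not pass. Slfn9, a fall against E14, was at 0.39. Which set is the parent of clone 10 is not given in the sources used here.

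In the rescued cells, which carry Ezh2 again in the same clone, few values differed from E14. Compared with the knockout, 3671 genes (20.9%) were higher and 4225 (24.1%) lower. Compared with E14, 19 genes passed (0.108%), 5 higher (0.0285%) and 14 lower (0.0798%), of which 3 (0.0171%) and 8 (0.0456%) by at least 2-fold. Gata6 stood at 2.05 and 1.71 CPM, Hoxd13 at 0.222 and 0.107, Zscan4c at 6.32 and 4.88, Tet1 at 1035 and 1060.2 and Ptch1 at 302 and 294 CPM, values on the E14 side of the knockout in each case. Ezh1, at 22.8 and 20.6 CPM, lay between the knockout and E14, and its log2 difference from E14 was -1.04 (SE 0.20, adjusted p = 0.0529). The slopes of log2 deviation on gene span were also alike, 0.174 and 0.149 in the rescued libraries beside the E14 values above. With this trend removed, 5 genes were higher and 15 lower than in E14. Compared with the knockout, 3445 were then higher and 3708 lower. The part of the trend in single genes was not tested. The 19 genes included Ezh2 (1.52), Esx1 (1.70), Krt8, a simple epithelial keratin (-2.18), and the junction gene Cldn4 (-1.65).

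In serum, LIF and 2i, clone 10 against TG2A cells of that medium gave 2754 genes higher (15.7%) and 2509 lower (14.3%), from libraries shared with none of the 6. Of the serum/LIF rises 1508 rose there too, 33.3% of the serum/LIF rises and 54.8% of those under 2i. Of the falls 1178 fell in both, 29.5% and 47%. Among changes of at least 2-fold, 1041 rises were shared (47.9% and 51.6%) and 131 falls (9.43% and 34.9%). Over all tested genes such rises took 12.4% in serum/LIF and 11.5% under 2i, and such falls 7.92% and 2.14%. Falls of that size in serum/LIF numbered 1389 against E14 but 392 against TG2A. Whether rises and falls differ in how they carried over was not tested. Calls in opposite directions were fewer, with 438 genes up in serum/LIF and down under 2i and 156 the other way round.

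Named genes differed in how they carried over. Hoxd13 stood at 7.75 and 7.81 CPM in the clone under 2i against 0.660 and 0.701 CPM (3.5), and Zscan4c rose by 4.77. Gata6 rose by 3.40 and Sox17 by 3.82 there, with Sox17 at 3.37 and 2.64 CPM in the clone. Of the lists, 18 of 33 Hox genes rose under 2i (32 in serum/LIF), 10 of 12 genes of the 2-cell-like state (12), 4 of 9 PrE transcription factors (7) and 6 of 18 PrE surface genes (12). Whether lists differ in this was not tested. Srgn (-0.74) and Lncenc1 (0.21) did not pass under 2i. Gab1 fell in both, by 2.94 in serum/LIF and 0.66 under 2i, at 178 and 184 against 288 and 287 CPM.

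The difference of the 2 changes, serum/LIF less 2i, was called for 4557 genes (26%), 2356 higher (13.4%) and 2201 lower (12.5%), with 817 (4.66%) and 1160 (6.61%) at least 2-fold. It uses E14 as the wild type of one medium and TG2A of the other, so medium and wild-type set cannot be told apart in it. With TG2A as the wild type of both media 196 genes were higher and 147 lower. Grhl2 (-3.86, SE 0.48, adjusted p = 5.87e-05), Lncenc1 (-3.64, SE 0.45, adjusted p = 5.88e-05) and Gab1 (-2.28, SE 0.12, adjusted p = 1.39e-08) were called both ways.

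**Figure D5:**
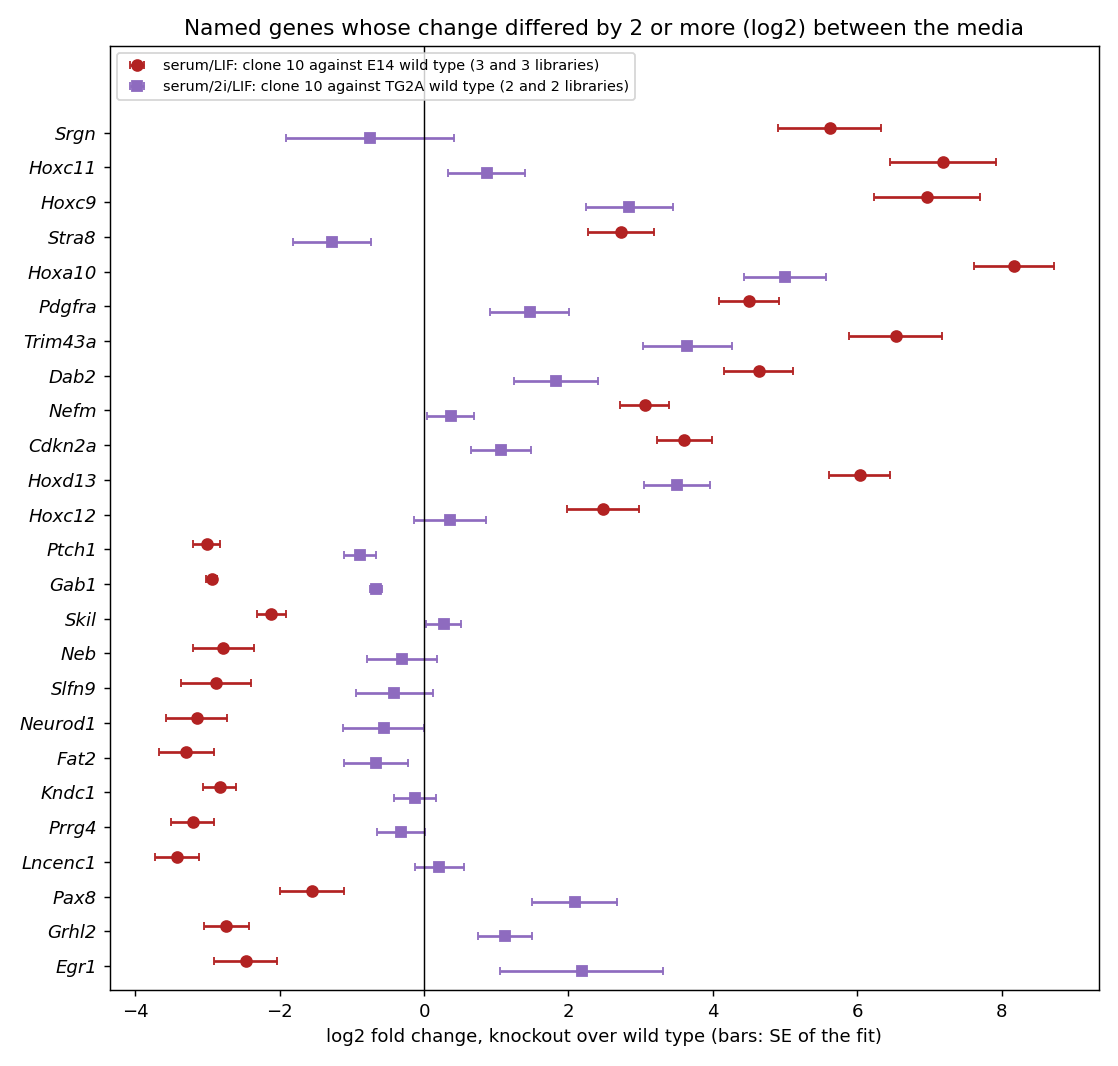
Log2 fold change of clone 10 over wild type, with SE bars, in serum/LIF (red circles, against E14, 3 and 3 libraries) and in serum/2i/LIF (purple squares, against TG2A, 2 and 2 libraries), for named genes whose changes differed by 2 or more. Grhl2 and Pax8 changed in opposite directions, Egr1 fell in serum/LIF and was at 2.19 under 2i without passing the test, and the falls of Lncenc1, Prrg4 and Kndc1 in serum/LIF stand beside values near 0 under 2i.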

How the data were processed

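The authors deposited 1 unscaled table of estimated counts over 55367 gene symbols. Trim Galore, DESeq2, STAR 2.7.6a and the build mm10 stand in the submitters' processing notes. Which tool, annotation and strand option produced the counts was not given in the sources used here. Between 5.71 and 6.59% of symbols held fractional values in the 6 libraries, with 27 to 33.7% of their counts, so the values, planned as counts, were rounded first. In R 4.3.3, edgeR 4.0.16 fitted a quasi-likelihood model with 1 term per group to all 22 libraries (filterByExpr, TMM, 12 residual degrees of freedom), with Benjamini-Hochberg adjustment over 17547 genes; CPM use the TMM-scaled totals. Tested on simulated data for the knockout comparison (16629 genes), 79% of 2-fold and 96% of 4-fold changes were recovered, with 7 false calls. The changed genes, 100 of each size, were drawn only from genes above a minimum mean level. They were far fewer than the genes called in the data. Recovery among genes of low counts, and false calls with so many changes, were therefore not tested. Bounds use 3 counts over a group without reads; other intervals are exact at 95%. Depth was 16185614 to 26280949 counts per library.

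Spans and overlaps come from the GENCODE annotation of GRCm38, matched for 17180 tested genes. The members and the 31 lists were chosen with earlier results of these data known. Named are landmark genes, up to 4 called members per list and direction with the largest change at 1 CPM or more, members against their list's direction, all tested Hox and PRC2 genes, and the 12 largest rises and falls at 10 CPM or more without overlap; further list members were named after their values were seen, and some genes are not reported here. Same-numbered replicates were not taken as pairs. Alternatives were RLE scaling, DESeq2 1.42.0, other filters, only the 6 libraries, the replicate block, other wild-type sets, rounding down, robust dispersion, each replicate left out, and, chosen after seeing the data, removal of the gene span trend.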

Additional observations from a re-analysis of the deposited data

Results flagged for a closer look

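The change from wild type to knockout differed between the media, by the interaction term of the edgeR fit over all genes (adjusted p below 0.05), for 61 of the 197 genes named by rule. Over all tested genes 4557 of 17547 (26%) were called. Many of the 197 were picked by the size of their serum/LIF change, which enters the difference, so the count measures no excess. Values are the log2 change in serum/LIF less that under 2i, with E14 as the wild type of the first and TG2A of the second, so the medium and the wild-type set cannot be told apart. With TG2A as wild type in both media, 9 of the 61 were still called with the same sign, 58 had the same sign and 3 (Slfn9, Cdh1 and Eed) the opposite sign.

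The change was lower in serum/LIF for 33 genes. Among the largest differences were the transcription factor genes Egr1, Grhl2, Pax8 and Neurod1: Egr1 (-4.66), Grhl2 (-3.86), Pax8 (-3.64), Lncenc1 (-3.64), Prrg4 (-2.88), Kndc1 (-2.71), Fat2 (-2.63), Neurod1 (-2.59), Slfn9 (-2.47), Neb (-2.47), Skil (-2.39), Gab1 (-2.28) and Ptch1 (-2.13). Lower by 1 to 2 units were Cldn4 (-1.83), Trp53inp1 (-1.70), Tfap2c (-1.55), Bcor (-1.44), Bbc3 (-1.37), Kmt2a (-1.28), Phc3 (-1.26), Kmt2d (-1.18) and Tet1 (-1.14). With TG2A as wild type in both media none of these was called. Their values were then from -0.86 (Trp53inp1) to -0.15 (Tet1), with Kmt2a at -0.30 and Kmt2d at -0.18. Smaller differences were seen for Cbx7 (-0.99), Cdkn1b (-0.86), Nid2 (-0.72), Spred2 (-0.70), Spred1 (-0.64), Pcgf3 (-0.63), Asxl2 (-0.61), Sox2 (-0.58), Cdh1 (-0.56), Jarid2 (-0.54) and Stat3 (-0.46).

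The change was higher in serum/LIF for 28 genes, of which those reported here follow. Pluripotency and PRC2 core genes were among those with differences below 1: Rbbp4 (0.61), Rara (0.64), Zfp42 (0.67), Eed (0.83) and Pou5f1 (0.96). From 1 to 2 they were Bmi1 (1.02), Hoxc13 (1.20), Atf3 (1.22), Snai1 (1.25), Nefl (1.60), Epop (1.78), Cbx8 (1.95), Cited1 (1.98), Mael (1.98) and Esx1 (1.99). Hox genes, PrE genes and Cdkn2a made up much of the rest: Hoxc12 (2.12), Hoxd13 (2.53), Cdkn2a (2.54), Nefm (2.69), Dab2 (2.81), Trim43a (2.89), Pdgfra (3.04), Hoxa10 (3.17), Stra8 (4.01), Hoxc9 (4.13), Hoxc11 (6.32) and Srgn (6.36). Hoxc9 and Hoxc11 had 1 wild-type count each over the E14 libraries, so the size of their differences depends on the prior count of the fit. Of the genes listed here above 2, only Hoxc11 was still called with TG2A as wild type in both media (4.09).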

How the results depend on the processing

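The counts of genes called higher and lower in the knockout against E14 stayed within 1.5 times of 4534 and 3990 under RLE scaling, DESeq2, the other filters, rounding down, robust dispersion and the fit on the 6 libraries alone, and with the gene span trend removed, an alternative chosen after seeing the data. Leaving out each library in turn gave 3697 to 4033 genes higher and 3488 to 3773 lower, and 1815 to 1936 and 1220 to 1368 at least 2-fold. Same-numbered libraries did not deviate together (correlations 0.054, -0.004 and 0.029), so the numbers were not taken as pairs: with the replicate block the 6-library fit called 5385 higher and 4998 lower, against 5329 and 4986 without it.

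With TG2A in place of E14, 20 of 62 list counts moved by more than 1.5 times, and 2381 genes were higher, 2482 lower and 392 at least 2-fold lower, and with both sets averaged 760 were at least 2-fold lower; the cause was not tested. The sign turned against TG2A for Pou5f1 (-0.33), Slfn9 (0.39), Hnf4a (1.39), Spink1 (-0.24), Dppa2 (-0.26), Foxd3 (-0.49), Bmp4 (-0.67), Bax (-0.22) and Eed (-0.78), with the sets averaged for Hnf4a (0.0514) and Eed (-0.35), and with the span trend removed for Bax (-0.0069). The rescued cells differed from E14 in 104 genes higher and 285 lower with no filter on low counts, 26 and 117 of them at least 2-fold. As said for Cubn above, p-values of the unfiltered fit are no measure of the spread between replicates. The difference between media fell to 196 genes higher and 147 lower with TG2A as the serum/LIF wild type, 71 and 92 at least 2-fold, and 516 were at least 2-fold higher with the span trend removed.

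In the fit on the 6 libraries alone 21 of 62 list counts moved by more than 1.5 times, among them stress and p53 genes (10 fell), germline genes (6 fell) and fibroblast genes (4 rose). Low counts limit the Hox and visceral endoderm genes, where a few wild-type reads set the size of a fold change.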

Other observations

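Over all tested genes 25.8% were higher in the knockout than in E14 and 22.7% lower, and some gene classes outside the lists had other shares. Of the 399 tested gene models of the provisional class TEC in the annotation 33 were called higher in the knockout and 146 lower, with a median log2 change of -0.948 against E14 and -0.151 against TG2A. Antisense RNAs gave 42 calls higher (10.6%) and 67 lower (16.9%) of 397, with a median of -0.336 against E14 and -0.205 against TG2A. Processed pseudogenes gave 122 (23.6%) and 46 (8.91%) of 516, with medians of 0.453 and 0.096. Protein-coding genes gave 4089 and 3500 of 14889 (median 0.08).

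By chromosome, 8 of 15 mitochondrial genes rose and 0 fell (median 0.451), but against TG2A their median was -0.04. The X chromosome had 190 rises and 123 falls of 624 tested genes (median 0.22, and 0.131 against TG2A), and chromosome 19 had 179 (32%) and 111 (19.9%) of 559 (median 0.134, and 0.017 against TG2A).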
